A study of Mus musculus with 4 samples.

Results

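The U2 small nuclear ribonucleoprotein (snRNP), its recruiter U2AF and the U4/U6.U5 tri-snRNP are the particles that join the spliceosome after U1 has marked the 5′ splice site. Their core proteins were described here by 39 genes, taken by symbol from the 55401 rows of the gene count table: 18 genes of the U2 snRNP, U2AF and their close partners, and 21 genes of the tri-snRNP, including the Lsm ring of the U6 snRNP. All 39 symbols had 1 row each, and all 39 were among the 17344 genes tested. The lowest count of any of them in any library was 76, for Lsm5 at 0 h in replicate 2.

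The libraries held RNA that took up 4-thiouridine (4sU) and was pulled down through it, so the values weigh towards new transcripts. The cells, mouse embryonic stem cells (129/Ola), carried an auxin-inducible degron on SNRNP70, a protein of the U1 snRNP. There were 2 libraries of cells given the auxin IAA for 5 h, whose genotype label names the degradation of SNRNP70, and 2 of cells without it (0 h), whose genotype label is WT although their titles give the same degron line. Both groups carried the degron and grew in medium with leukemia inhibitory factor, and the labels name no clone and no separate cultures, so the p-values reflect the spread of these 4 libraries, which may be technical.

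Totals ran from 7174772 to 17752887 counts. Snrnp70 RNA does not check the labels, since the degron acts on the protein; it was at 463 ± 17.3 CPM (counts scaled to TMM-normalised library size) at 5 h and 246 ± 4.46 CPM at 0 h (SD, n = 2 each). Zfp207, a zinc-finger gene, was at 953 ± 77.8 CPM at 5 h and 576 ± 40.5 CPM at 0 h. All 12 embryonic stem cell markers were detected, with summed levels of 5196 and 5101 CPM at 5 h and 4938 and 4722 CPM at 0 h. Fibroblast feeder markers summed to 12.5 to 14.6 CPM at 5 h and 10.5 to 11.3 CPM at 0 h, with Col3a1 and Postn at 0, and markers of differentiated lineages to 10.3 to 11.4 CPM at 5 h and 5.84 to 10.5 CPM at 0 h, with Cdx2 at 0. In bulk RNA, fewer cells of a type and less RNA per cell cannot be told apart.

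As background, the U2 snRNP pairs with the branch point of an intron. Sf1 and the 2 U2AF subunits read the branch point, the pyrimidine tract and the AG at the 3′ end of the intron first, and SF3a and SF3b then clamp U2 on the branch point. The tri-snRNP brings in U4, U6 and U5, after which U6 takes the place of U1 at the 5′ splice site, the helicase Snrnp200 unwinds U4 from U6, and the catalytic centre forms around Prpf8. These proteins act on nearly every intron.

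After 5 h of auxin, labelled RNA of 19 of the 39 genes was higher and that of 5 was lower than at 0 h by edgeR's quasi-likelihood test with a Benjamini-Hochberg adjusted p under 0.05 over all tested genes, and 15 did not pass. The share of all tested genes called was 22.0% higher and 21.2% lower, against 48.7% and 12.8% of the members. The median log2 fold change (5 h over 0 h) was 0.27 over the members and -0.02 over all tested genes. The largest rises were those of Sf3b5, Sart1, Lsm7, Lsm8 and Puf60, and the genes that fell were Eftud2, Sf3b6, Prpf31, Prpf6 and Ppih. The changes spanned 2.10 log2 units, from -0.76 for Eftud2 to 1.33 for Sf3b5. With TMM, proteins that sit in 1 particle thus had RNAs that moved in opposite directions, and the test called both directions within SF3b, within U4/U6 and within U5. Mitochondrial scaling, described below, left no rise called.

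Both 5 h libraries lay above both 0 h libraries for 24 of the 39 genes (36.0% of all tested genes did so) and below both for 8 (37.5% of all tested genes). Over the members, the group means lay a median of 0.41 log2 units apart, while replicates lay 0.12 apart at 5 h and 0.08 apart at 0 h. Without either 0 h replicate fewer members passed in both directions, and so did fewer of all tested genes. Leaving out a 5 h replicate also left 1 library in a group, without a drop of that size over all tested genes. The reason was not tested. The members' median log2 fold change was 0.29 without 0 h replicate 2 and 0.27 without 0 h replicate 1. Of the calls, 13 rises and 2 falls held under all 12 alternatives other than the 2 rescalings described next.

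**Figure D1:**
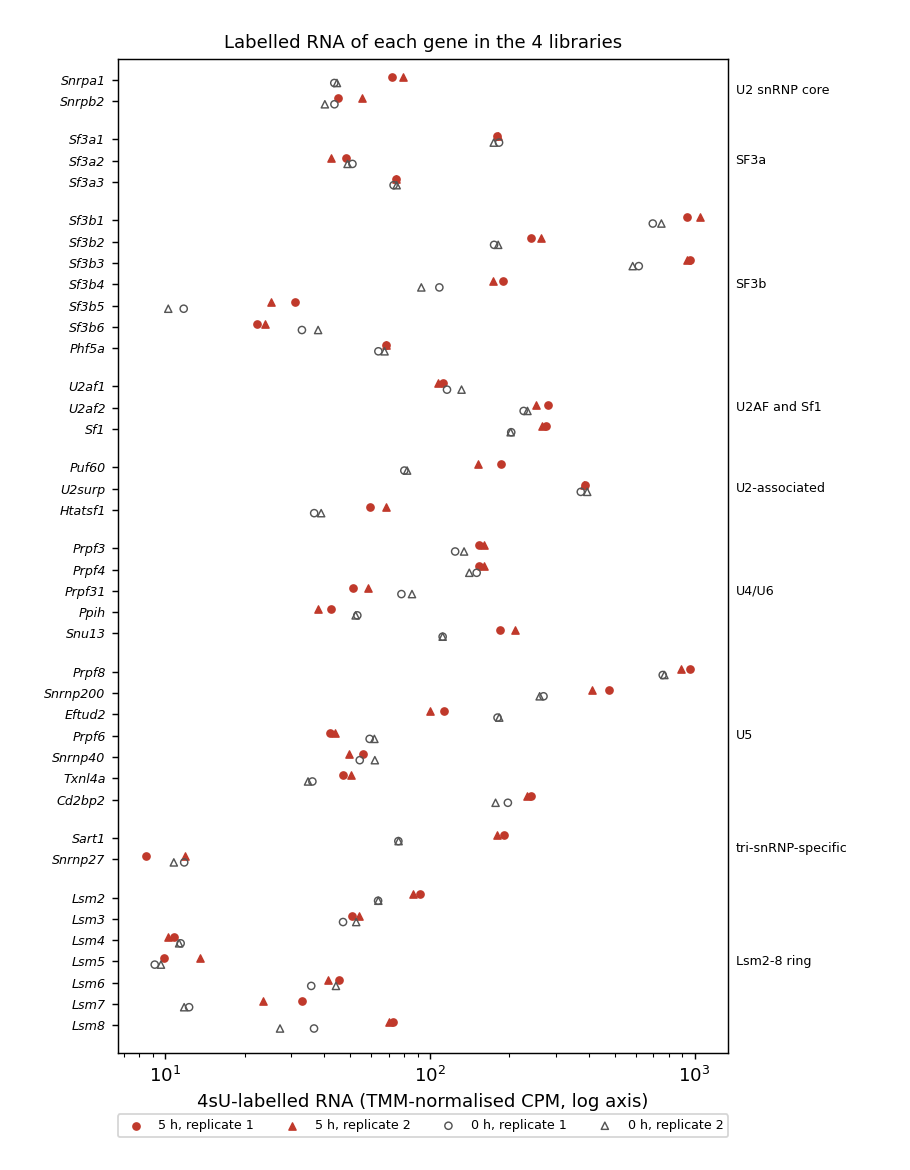
Labelled RNA of the 39 genes in the 4 libraries, in TMM-normalised CPM on a log axis, grouped by particle. Filled red symbols are the 5 h libraries, open grey symbols the 0 h libraries, and circles and triangles are replicates 1 and 2. CPM is not per length, so positions are compared only along a row. The 5 h pair lies clear to the right for Sart1, Puf60 and Lsm8, and clear to the left for Eftud2 and Prpf31.

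The size of a change depends on the scaling, since nothing in the sources used here gives a spiked-in RNA. Scaling to library totals moved the median tested gene by -0.27 on the log2 scale, and scaling to the mitochondrially encoded genes moved it by -0.84. With library totals 11 members were higher and 10 lower, where 13.2% and 30.3% of all tested genes were. The rises of Sf3b1, Sf3b2, Sf1, Prpf3, Prpf8, Txnl4a, Cd2bp2 and Lsm2 were not called with library totals. With mitochondrial scaling 0 members were higher and 24 lower, where 2.28% and 51.2% of all tested genes were, and by edgeR's unadjusted p under 0.05 the members were 1 higher and 25 lower. Mitochondrial genes took 6.03% and 7.17% of counts at 5 h, against 4.41% and 4.34% at 0 h. By construction, this larger share sets how much further mitochondrial scaling moved the genes than library totals did. The reason for the larger share was not tested. Directions below are therefore relative to the typical gene of the TMM fit, and the differences between genes of 1 library, which no scaling alters, are given beside them. Prpf31 and Eftud2 were lower under every scaling and alternative run.

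**Figure D2:**
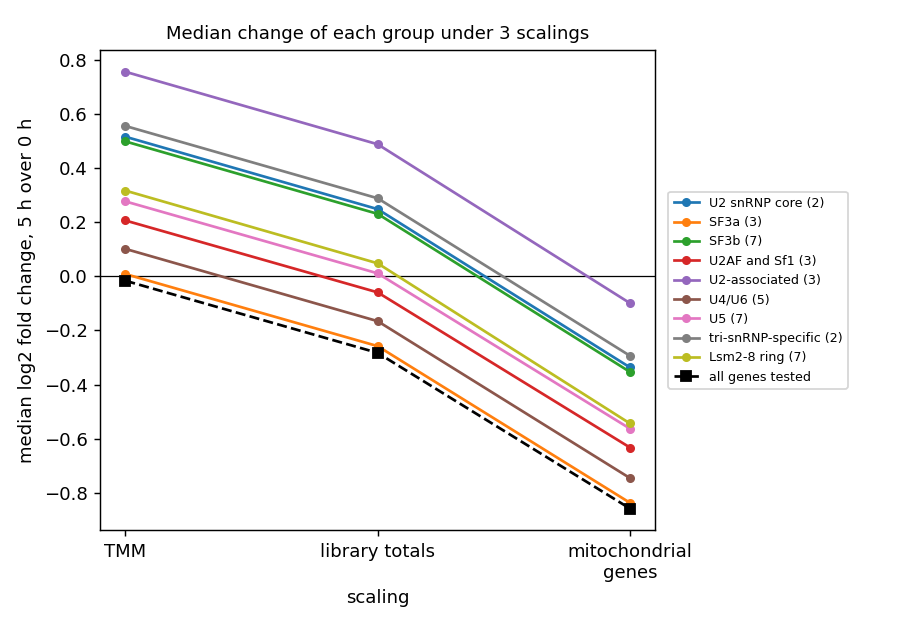
Median log2 fold change (5 h over 0 h) of each group of subunits under 3 scalings, with the number of genes in brackets, and of all tested genes (black squares). All lines fall together, and SF3a, at 0.01 with TMM, stays closest to the line of all genes, while the U2-associated proteins stay highest.

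RefSeq promoter sequences of the GRCm38.p6 build were matched by symbol for 30 of the 39 genes, and the 4 printed here belong to the genes with the highest and the lowest log2 fold change in each particle among those 30. Snrpa1 (0.78) and Sf3b6 (-0.61) stand for U2, and Sart1 (1.28) and Prpf31 (-0.58) for the tri-snRNP. Each run of 300 bases goes from 250 bases before the annotated start to 50 after it, at chr7:66060086-66060385 on the plus strand, chr12:4817358-4817657 on the plus strand, chr19:5388654-5388953 on the minus strand and chr7:3629735-3630034 on the plus strand. Capitals mark the motifs searched on both strands: the GC box GGGCGG, the CCAAT box CCAAT, the ETS core CGGAAG, the TATA box TATAAA, the E-box CACGTG, the NRF1 site GCGCATGCG and the YY1 site AAGATGGCG.
Snrpa1: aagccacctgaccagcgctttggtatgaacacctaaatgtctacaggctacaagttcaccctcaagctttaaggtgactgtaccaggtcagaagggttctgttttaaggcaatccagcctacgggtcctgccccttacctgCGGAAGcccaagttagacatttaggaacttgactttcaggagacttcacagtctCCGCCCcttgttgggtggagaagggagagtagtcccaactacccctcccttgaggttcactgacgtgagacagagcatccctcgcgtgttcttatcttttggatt
Sf3b6: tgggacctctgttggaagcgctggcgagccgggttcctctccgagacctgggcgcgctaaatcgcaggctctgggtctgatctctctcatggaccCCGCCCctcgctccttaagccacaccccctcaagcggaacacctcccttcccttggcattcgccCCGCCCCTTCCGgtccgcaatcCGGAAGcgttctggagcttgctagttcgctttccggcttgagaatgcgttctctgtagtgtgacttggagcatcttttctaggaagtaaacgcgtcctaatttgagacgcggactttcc
Sart1: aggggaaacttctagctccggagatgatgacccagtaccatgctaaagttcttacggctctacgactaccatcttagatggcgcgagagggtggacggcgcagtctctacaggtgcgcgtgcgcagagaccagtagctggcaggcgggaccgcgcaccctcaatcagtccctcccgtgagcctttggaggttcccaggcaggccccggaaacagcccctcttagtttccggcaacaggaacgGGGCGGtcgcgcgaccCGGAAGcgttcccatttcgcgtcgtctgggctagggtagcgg
Prpf31: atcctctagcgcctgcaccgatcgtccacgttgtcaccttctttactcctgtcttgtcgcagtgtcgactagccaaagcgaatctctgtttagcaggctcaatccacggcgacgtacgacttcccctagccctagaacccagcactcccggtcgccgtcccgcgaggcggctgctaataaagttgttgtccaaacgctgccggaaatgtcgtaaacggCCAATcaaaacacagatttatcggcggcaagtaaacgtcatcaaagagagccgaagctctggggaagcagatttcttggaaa

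The promoter of Snrpa1 held 1 GC box and 1 ETS core, that of Sf3b6 held 2 of each, with 1 GC box running straight into 1 ETS core, that of Sart1 held 1 of each, and that of Prpf31 held a CCAAT box alone. Sf3b6, which fell, thus held the same 2 motifs as Snrpa1 and Sart1, which rose, while Prpf31, which fell, shared none with either. Over the 30 promoters, 23 held a GC box (76.7%, against 64.3% of 11006 promoters of tested genes and 35.7% of all 32851 promoters), and 20 held an ETS core (66.7%, against 31.4% and 16.9%). The ETS core was in 10 of 15 promoters of genes that rose, 3 of 4 of genes that fell and 7 of 11 of genes without a call. The CCAAT box was in 10 (33.3%, against 39.5% and 37.4%), the TATA box and the E-box in 1 each (7.1% and 10.3% of tested genes, 13.6% and 7.15% of all), and the NRF1 and YY1 sites in 2 each (3.69% and 3.06% of tested genes, 1.75% and 1.4% of all). The median GC content was 58.5% over the members and 61.0% over tested genes. A match is a string of letters and not a bound site.

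Within the U2 particle, the stem-loop proteins come first. Snrpa1 and Snrpb2 encode partner proteins that bind a stem-loop of U2 snRNA together. Snrpa1 had 72.2 and 79.2 CPM at 5 h, against 43.6 and 44.7 CPM at 0 h, a 1.71-fold rise (log2 0.78 ± 0.12 SE, adjusted p = 0.000521). Snrpb2 had 45.2 and 55.6 CPM at 5 h, against 43.7 and 40.2 CPM at 0 h, and did not pass (log2 0.25 ± 0.14, adjusted p = 0.178). The groups did not overlap for either gene, but for Snrpb2 the 5 h replicates stood farther apart than the group means, and it passed without 5 h replicate 1 (log2 0.40, adjusted p = 0.0258).

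The SF3a subunits Sf3a1, Sf3a2 and Sf3a3, which tie SF3b to the body of the U2 snRNP, had no call in any of the 3 genes by edgeR, and also none at an unadjusted p under 0.05. Sf3a1 averaged 180.0 ± 1.37 CPM at 5 h and 179 ± 5.83 CPM at 0 h, and Sf3a3 averaged 74.5 ± 0.146 and 74.1 ± 1.40 CPM (SD, n = 2 each). Sf3a2 had 48.4 and 42.4 CPM at 5 h, against 51.1 and 49.0 CPM at 0 h, a log2 fold change of -0.14 ± 0.13 (SE). Their log2 fold changes thus lay between -0.14 and 0.01, the narrowest range of the 9 groups of subunits. With library totals, which lower the median gene, Sf3a1 and Sf3a2 were called lower.

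SF3b, which encloses the branch point, gave the widest range of any group, 1.94 log2 units over 7 genes, with 5 rises and 1 fall. Its large scaffold subunit Sf3b1, a ring of HEAT repeats, had 935 and 1052 CPM at 5 h, against 696 and 749.9 CPM at 0 h (log2 0.46 ± 0.09, adjusted p = 0.00221). Sf3b3, a stack of beta-propellers that supports Sf3b1, had 962 and 933 CPM at 5 h, against 616 and 584 CPM at 0 h (log2 0.66 ± 0.08, adjusted p = 0.000150). Sf3b2 and Sf3b4 bind each other, and Sf3b4 touches the intron upstream of the branch point. Sf3b2 had 241 and 262 CPM at 5 h, against 175 and 181 CPM at 0 h. Sf3b4 had 189 and 174 CPM at 5 h, against 109 and 93.0 CPM at 0 h. For all 4 genes every 5 h value lay above every 0 h value with TMM, and the log2 fold changes ran from 0.46 to 0.84. With library totals the rises of Sf3b1 and Sf3b2 did not pass (adjusted p = 0.0923 and 0.0571).

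The smallest SF3b subunits stood at both ends of the range. Sf3b5, which packs against Sf3b3, had 30.9 and 25.1 CPM at 5 h, against 11.8 and 10.3 CPM at 0 h, a 2.52-fold rise (log2 1.33 ± 0.19, adjusted p = 0.000364). Sf3b6, the protein that contacts the branch point adenosine, had 22.4 and 24.0 CPM at 5 h, against 32.9 and 37.9 CPM at 0 h, 1.52-fold lower at 5 h (log2 -0.61 ± 0.16, adjusted p = 0.00929). Phf5a, a small zinc-finger protein lodged in the branch point pocket of Sf3b1, averaged 68.5 ± 0.283 CPM at 5 h and 65.8 ± 2.50 CPM at 0 h and was not called. These 3 proteins of the same complex thus had 1 rise, 1 fall and 1 value near no change. The fall of Sf3b6 was not called without 0 h replicate 2 (log2 -0.51, adjusted p = 0.101), where an arm of 1 library is assumed to vary like the other arm. The count ratio of Sf3b5 to Sf3b6 was 1.38 and 1.05 at 5 h, against 0.358 and 0.272 at 0 h, a 3.85-fold change that no scaling alters.

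Of the proteins that read the 3′ end of the intron before U2 arrives, Sf1, which binds the branch point first, had 274 and 264 CPM at 5 h, against 203 and 202 CPM at 0 h (log2 0.41 ± 0.09, adjusted p = 0.00348). That call was lost without 0 h replicate 2 (adjusted p = 0.0621). U2af2, the subunit on the pyrimidine tract, had 279 and 252 CPM at 5 h, against 226 and 234 CPM at 0 h, and did not pass (adjusted p = 0.0961), though it did without 5 h replicate 2 (log2 0.29, adjusted p = 0.0145). U2af1, the subunit on the AG, had 112 and 107 CPM at 5 h, against 116 and 132 CPM at 0 h (log2 -0.17 ± 0.11, adjusted p = 0.217). The 2 subunits of the U2AF heterodimer had values on opposite sides of 0 with TMM, and neither was called. With library totals both lay below 0, and U2af1 was called lower (log2 -0.44, adjusted p = 0.00877) while U2af2 was not (log2 -0.06).

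Puf60, a relative of U2af2 that helps it on weak pyrimidine tracts, showed the largest rise after Sf3b5 among the U2 genes. It had 185 and 152 CPM at 5 h, against 80.2 and 82.2 CPM at 0 h, 2.08-fold higher at 5 h (log2 1.06 ± 0.12, adjusted p = 7.48e-05). Htatsf1, which holds SF3b1 before the branch point is bound, had 59.3 and 68.3 CPM at 5 h, against 36.6 and 38.9 CPM at 0 h (log2 0.76 ± 0.13, adjusted p = 0.00104). U2surp, an SR-related protein of the U2 snRNP, averaged 384 ± 1.22 CPM at 5 h and 383 ± 15.1 CPM at 0 h. Its groups overlapped, and its log2 fold change was 0.01 ± 0.08. With library totals U2surp was called lower (log2 -0.26, adjusted p = 0.028).

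**Figure D3:**
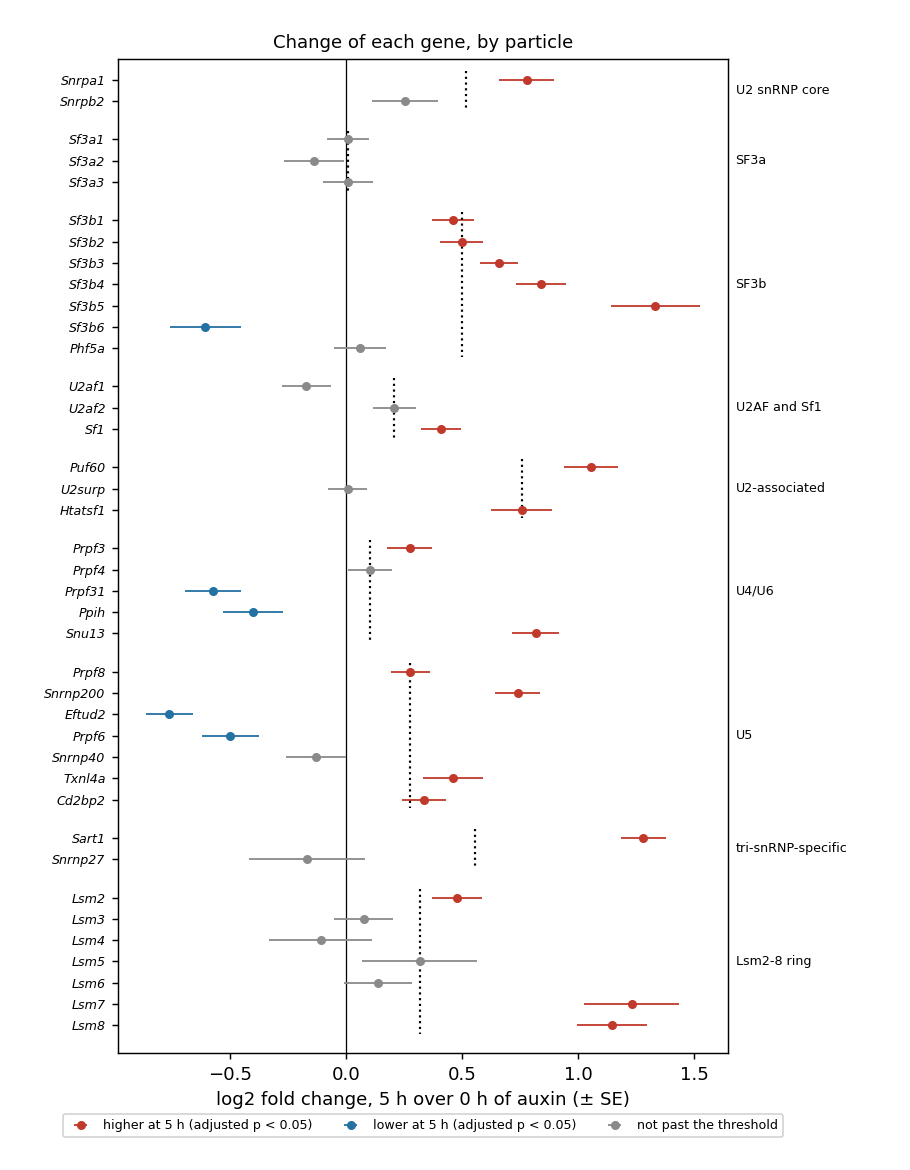
Log2 fold change (5 h over 0 h) of each gene with its SE, by particle. Red is higher and blue lower at 5 h with an adjusted p under 0.05, grey did not pass, and the dotted line is the median of the group. SF3b, U4/U6 and U5 hold both red and blue points, and the 3 SF3a genes lie between -0.14 and 0.01.

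Of the U4/U6 proteins, Snu13 binds the kink-turn of U4 snRNA, and also that of box C/D snoRNAs, and Prpf31 then clamps on to it. Snu13 had 184 and 211 CPM at 5 h, against 112 and 112 CPM at 0 h (log2 0.82 ± 0.10, adjusted p = 0.000152). Prpf31 had 51.4 and 58.7 CPM at 5 h, against 78.2 and 85.8 CPM at 0 h (log2 -0.58 ± 0.12, adjusted p = 0.00333). The 2 proteins bind side by side on U4, and their RNAs moved in opposite directions with no overlap between the groups. Their count ratio was 3.58 and 3.59 at 5 h, against 1.43 and 1.31 at 0 h.

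Prpf3, Prpf4 and the prolyl isomerase Ppih form the other protein module of U4/U6. Prpf3 had 154 and 160.1 CPM at 5 h, against 125 and 135 CPM at 0 h, a call close to the threshold (log2 0.27 ± 0.10, adjusted p = 0.0416). Prpf4 had 153 and 160.0 CPM at 5 h, against 150.5 and 141 CPM at 0 h (adjusted p = 0.422). Ppih had 42.3 and 37.7 CPM at 5 h, against 53.3 and 52.6 CPM at 0 h (log2 -0.40 ± 0.13, adjusted p = 0.0276). The calls of Prpf3 and Ppih were lost with DESeq2 (adjusted p = 0.0546 and 0.0804), without either 0 h replicate and without 5 h replicate 2, and that of Prpf3 also with no filter and with the stricter one.

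In U5, the helicase gene rose and the gene of its regulator fell. Snrnp200, the helicase that unwinds U4 from U6, had 474 and 409.5 CPM at 5 h, against 269 and 260.2 CPM at 0 h (log2 0.74 ± 0.10, adjusted p = 0.000192). Eftud2, the GTPase that controls it, had 113 and 101 CPM at 5 h, against 180.4 and 183 CPM at 0 h, 1.70-fold lower at 5 h (log2 -0.76 ± 0.10, adjusted p = 0.000208). No values overlapped for either gene. The count ratio of Snrnp200 to Eftud2 was 4.19 and 4.07 at 5 h, and at 0 h it was 2.84-fold lower on average, a shift that no scaling alters.

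Prpf8, the scaffold of the catalytic centre that binds both, had 964 and 887 CPM at 5 h, against 759 and 769.6 CPM at 0 h, a smaller rise (log2 0.28 ± 0.08, adjusted p = 0.0208). Prpf6, the bridge between U5 and U4/U6, had 41.9 and 43.8 CPM at 5 h, against 59.3 and 61.8 CPM at 0 h (log2 -0.50 ± 0.12, adjusted p = 0.00735). Leaving out either 0 h replicate ended the call of Prpf8 (adjusted p = 0.197 without replicate 1 and 0.187 without replicate 2), and leaving out 0 h replicate 2 ended that of Prpf6 (adjusted p = 0.0684).

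Of the smaller U5 proteins 2 were called higher and 1 was not called. Cd2bp2, which is on the U5 particle before it enters the tri-snRNP and leaves it then, had 241 and 233 CPM at 5 h, against 197 and 177 CPM at 0 h (adjusted p = 0.0152). Txnl4a, a thioredoxin-fold protein next to Prpf8, had 47.1 and 50.6 CPM at 5 h, against 36.1 and 34.7 CPM at 0 h (adjusted p = 0.0154). The WD40 protein gene Snrnp40 had 56.2 and 49.7 CPM at 5 h, against 54.5 and 62.1 CPM at 0 h, with overlapping groups. With library totals Snrnp40 was called lower (log2 -0.40, adjusted p = 0.04). Without 0 h replicate 2 the calls of Cd2bp2 and Txnl4a were lost (adjusted p = 0.236 and 0.112), and that of Txnl4a also without 0 h replicate 1 (adjusted p = 0.0638). Txnl4a overlaps Gm16286, which had higher counts than Txnl4a in every library and a log2 fold change of 1.01 (adjusted p = 3.29e-05), and reads of the 2 genes cannot be told apart without strand.

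The tri-snRNP-specific protein Sart1, which joins U5 to U4/U6 in the assembled particle, had the lowest adjusted p of the 39 genes. It had 191 and 179.7 CPM at 5 h, against 76.2 and 76.3 CPM at 0 h, 2.43-fold higher at 5 h (log2 1.28 ± 0.10, adjusted p = 1.47e-05). Snrnp27, the other protein of this class, had 8.49 and 11.9 CPM at 5 h, against 11.8 and 10.8 CPM at 0 h. Its groups overlapped and its error was wide (log2 -0.17 ± 0.25), with a value of 0.07 without 5 h replicate 1.

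The Lsm2 to Lsm8 proteins form a ring of 7 on the uridine-rich 3′ end of U6 snRNA, in which Lsm8 marks the nuclear ring. In the cytoplasm Lsm1 takes its place and the ring acts in mRNA decay. Lsm8 had 72.7 and 70.3 CPM at 5 h, against 36.6 and 27.2 CPM at 0 h, 2.21-fold higher at 5 h (log2 1.15 ± 0.15, adjusted p = 0.000216). Lsm7 had 33.1 and 23.6 CPM at 5 h, against 12.4 and 11.8 CPM at 0 h, 2.35-fold higher at 5 h (log2 1.23 ± 0.21, adjusted p = 0.000846). Lsm2 had 91.6 and 86.5 CPM at 5 h, against 63.9 and 64.0 CPM at 0 h (log2 0.48 ± 0.11, adjusted p = 0.00477, and adjusted p = 0.0505 without 0 h replicate 2). The groups of these 3 genes did not overlap.

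The other 4 ring genes were not called. Lsm3 had 50.9 and 54.0 CPM at 5 h, against 47.1 and 52.8 CPM at 0 h, and Lsm6 had 45.6 and 41.5 CPM at 5 h, against 35.7 and 44.3 CPM at 0 h, with overlapping groups in both. Lsm4 and Lsm5 were low, at 10.6 ± 0.406 CPM and 11.8 ± 2.60 CPM at 5 h, against 11.4 ± 0.108 and 9.42 ± 0.360 CPM at 0 h. Their SEs on the log2 scale, 0.22 for Lsm4 and 0.25 for Lsm5, were the widest of the 39 genes after that of Snrnp27, so smaller changes were not detectable there. No ring gene was called lower with TMM, and the count ratio of Lsm7 to Lsm4 was 3.05 and 2.29 at 5 h, against 1.08 and 1.04 at 0 h.

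**Figure D4:**
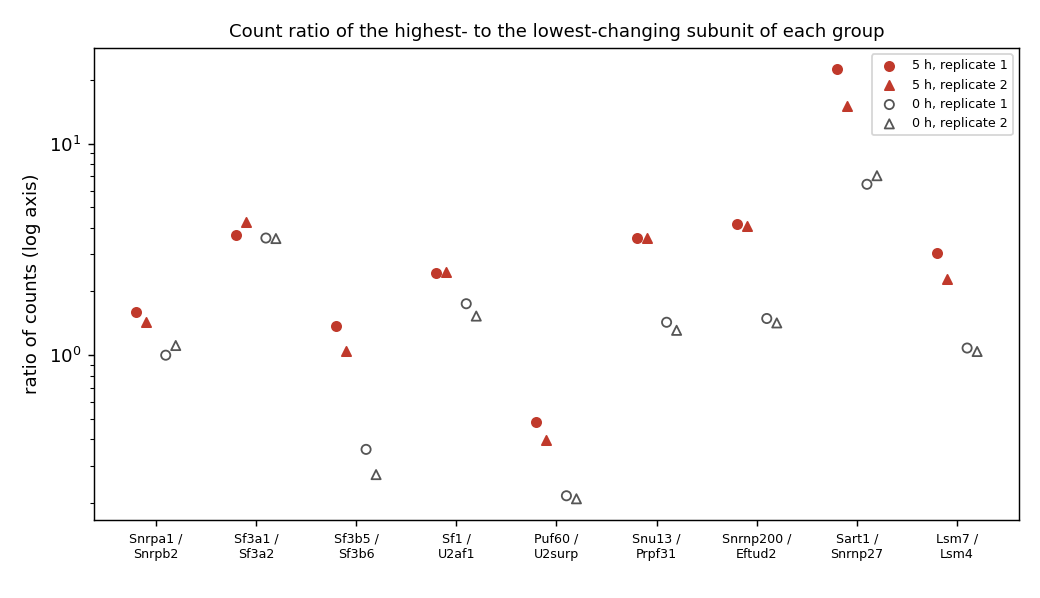
Ratio of the counts of the subunit with the highest log2 fold change to those of the subunit with the lowest, in each group of subunits and each library, on a log axis. Filled red symbols are the 5 h libraries and open grey symbols the 0 h libraries. The pairs were taken as the extremes, so that the ratio is higher at 5 h is given by the choice, and its height reflects gene length as well. The shift is smallest in SF3a, 1.11-fold, and largest in SF3b, 3.85-fold.

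Set side by side, the U2 and U2AF genes had 9 rises, 1 fall and 8 without a call, with a median log2 fold change of 0.33. The tri-snRNP genes had 10, 4 and 7, with a median of 0.27. Of all tested genes 22.0% rose and 21.2% fell. Measured from the median of all tested genes of like span, described below, the medians were 0.35 for U2 and U2AF and 0.08 for the tri-snRNP. By group the medians were 0.76 for the U2-associated proteins, 0.56 for the tri-snRNP-specific, 0.52 for the U2 core, 0.50 for SF3b, 0.32 for the Lsm ring, 0.28 for U5, 0.21 for U2AF with Sf1, 0.10 for U4/U6 and 0.01 for SF3a, and groups of 2 or 3 genes rest on single genes. Of the 39 genes, 5 were called with a rise of 2-fold or more (12.8%, against 7.6% of all tested genes), and these were Sf3b5, Puf60, Sart1, Lsm7 and Lsm8. In each library, the mean log2 count of the U2 genes minus that of the tri-snRNP genes was 0.86 and 0.86 at 5 h, against 0.74 and 0.75 at 0 h, a change of 0.12. SF3b minus SF3a was 0.82 and 0.87 at 5 h, against 0.33 and 0.35 at 0 h, a change of 0.51, and the Lsm ring minus U5 was -2.09 and -2.05 at 5 h, against -2.48 and -2.47 at 0 h, a change of 0.41. In all 3 the change was larger than the difference between replicates. These are differences of means, which a few genes can move. For the Lsm ring and U5 the mean log2 fold changes were 0.47 and 0.06, while the medians were 0.32 and 0.28. Measured from the median of all tested genes of like span, the medians of both were 0.08. No test was run over these sets, since the genes are not replicates.

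Gene span was set beside the changes because U1 snRNP is known to protect long transcripts from early cleavage and polyadenylation. The spans, from the RefSeq start to the end of each gene in GRCm38, ran from 0.734 kb for Sf3b5 to 55.1 kb for U2surp, and no member was over 100 kb. All 5 members under 5 kb (Sf3b5, Lsm7, Lsm5, Lsm2 and Cd2bp2) had values above 0, with a median log2 fold change of 0.48, against 0.49 over all 3017 tested genes of that span. The 22 members of 5 to 20 kb had a median of 0.17, against -0.01 over all such genes, and the 10 members of 20 to 50 kb one of 0.28, against -0.21. The 2 members of 50 to 100 kb, U2surp and Prpf6, lay at 0.01 and -0.50, where the class median was -0.28. The rank correlation (Spearman's rho) of span with log2 fold change was -0.33 over the 39 genes, -0.13 over the 18 U2 genes and -0.50 over the 21 tri-snRNP genes, against -0.30 over 15029 tested genes, given as a description because the genes share their libraries.

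Some genes of like span lay on opposite sides of 0, given here for examples picked after their values were seen. The part of span in the changes was not tested. Sf3b1 and Eftud2 span 42.3 and 42.5 kb, with log2 fold changes of 0.46 and -0.76. Snrnp200, of 32.1 kb, lay 0.95 log2 units above the median of its span class and Eftud2 0.55 below it. Sart1, at 11.2 kb, was 1.29 above its class median, the largest distance among the 39 genes, and Sf3b6, at 10.1 kb, was 0.60 below.

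**Figure D5:**
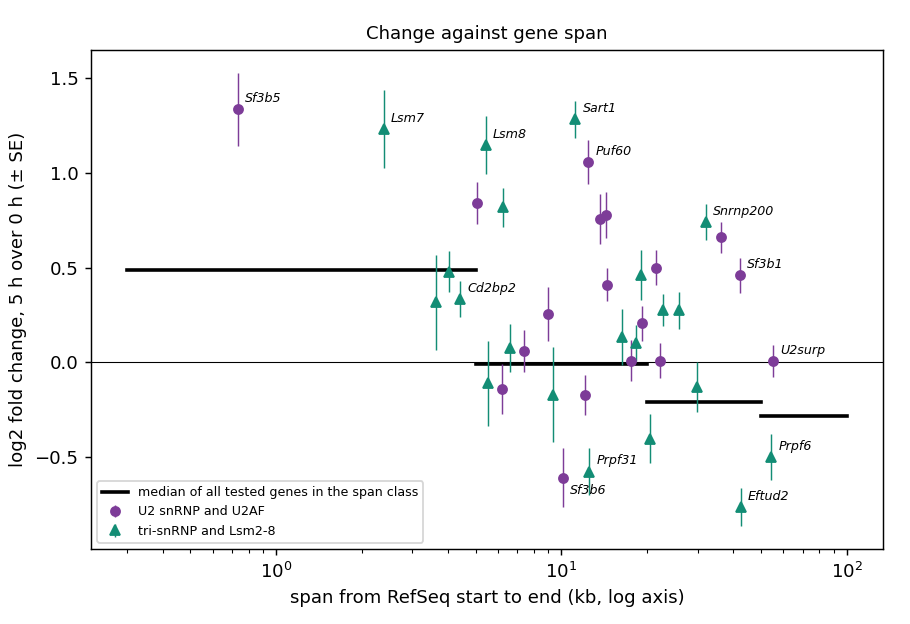
Log2 fold change (5 h over 0 h, with SE) of the 39 genes against the span from RefSeq start to end, in kb on a log axis. Purple circles are U2 and U2AF genes, green triangles tri-snRNP and Lsm ring genes, and black bars the median of all tested genes in each span class. Members scatter on both sides of the bars, with Sart1 farthest above and Sf3b6, Prpf31 and Eftud2 farthest below.

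Where a member shares its place with another gene, the counts of both are uncertain, because the strand setting was not given in the sources used here. By RefSeq positions, 9 of the 39 genes overlap another gene that has a row in the table. Besides Txnl4a they include Sf3b3, which overlaps Snord111 and Cog4, and Sf3b4, which overlaps the snoRNA gene Gm22027. Snord111 had 39 and 22 counts at 5 h and 14 and 8 at 0 h, and Gm22027 had 81 and 60 at 5 h and 39 and 21 at 0 h, both small beside the counts of the members they overlap; Gm22027 was called higher (log2 1.39, adjusted p = 0.0118). Cog4, with 679 and 371 counts at 5 h and 870 and 278 at 0 h, did not pass (log2 0.11, adjusted p = 0.602), nor did Gm15927, which overlaps Prpf31 (log2 -0.02, adjusted p = 0.967). For Sart1 the overlapping D330050I16Rik had at most 45 counts in a library. Their part in the members' values was not tested.

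Other spliceosome genes were taken from lists by role, 73 genes in all and all tested. Of these 37 rose, 8 fell and 28 did not pass, with a median log2 fold change of 0.43 (0.16 with library totals and -0.42 with mitochondrial scaling). Of all tested genes 22.0% rose and 21.2% fell, and of the members 48.7% and 12.8%. Frequent rises were thus not particular to the 39 members. Library totals gave 5, 2, 0, 4, 4, 4 and 2 rises, in the order of the lists below. Falls then numbered 0, 4, 2, 5, 1, 1 and 1, where 13.2% of all tested genes rose and 30.3% fell. Mitochondrial scaling gave 0 rises in each list but the Sm core, with 1. Falls there numbered 2, 8, 7, 7, 3, 2 and 4, where 2.28% of all tested genes rose and 51.2% fell. The counts that follow are with TMM unless stated. Of 9 other U2-associated proteins 7 rose and 2 did not pass, and the most abundant were the helicases Dhx15 (log2 0.85 ± 0.09), Ddx46 (0.63 ± 0.10), which remodels U2 at the branch point, and Ddx42 (0.89 ± 0.09). Of 15 assembly and activation factors of the tri-snRNP, 6 rose and 1 fell, and without 0 h replicate 2 the counts were 2 and 0. The fall was also lost with DESeq2, RLE factors, no robust estimation, without 0 h replicate 1 and without 5 h replicate 2, while 3 fell with the stricter filter and with counts divided by 4. Sart3, which rejoins U4 and U6 after each round of splicing, had 271 CPM at 5 h and 128 CPM at 0 h on average (log2 1.08 ± 0.11), and the kinase gene Prpf4b (0.37 ± 0.11) and the deubiquitinase gene Usp15 (0.36 ± 0.10) rose less, calls lost without 0 h replicate 2 (adjusted p = 0.0767 and 0.0562) or 0 h replicate 1, and for Prpf4b also without 5 h replicate 2. Of 8 proteins that enter with the tri-snRNP in the B complex 1 fell and 7 did not pass, with Smu1, Mfap1a and Prpf38a between -0.10 and 0.19 and not called. In that list 2 rose with limma-voom and with counts divided by 4, and 1 with no filter, with the replicate block, without 5 h replicate 1 and without 0 h replicate 2.

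The Prp19 complex and its partners, which enter as the spliceosome is activated, had 10 rises (6 without 0 h replicate 2) and 4 falls in 17 genes, with Prpf19 at 1.00 ± 0.09, the helicase gene Aqr at 0.59 ± 0.09 and Cdc5l at 0.23 ± 0.09, which did not pass (adjusted p = 0.0514, and 0.0444 with DESeq2). Of 10 factors of the later steps 7 rose and 1 fell, among them Prpf18 (0.87 ± 0.10), Dhx8 (0.43 ± 0.10) and Dhx16 (0.43 ± 0.10); the call of Dhx16 was lost without 0 h replicate 2 (adjusted p = 0.0962) and that of Dhx8 without 0 h replicate 1 (adjusted p = 0.0722). Of the 8 Sm core genes, whose products ring all the major snRNAs but U6, 5 rose and 3 did not pass, with Snrpe at 1.37 ± 0.11, Snrpb at 1.11 ± 0.14 and Snrpd1 at 0.94 ± 0.14. Of 6 Lsm genes outside the U6 ring 2 rose and 1 fell, with Lsm12 at 0.95 ± 0.11, Lsm14b at 0.95 ± 0.15 and Lsm14a at 0.05 ± 0.09. The list medians ran from 0.03 for these Lsm genes to 0.71 for the Sm core, and those of the 9 groups of members lay between 0.01 and 0.76.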

How the data were processed

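4sU-labelled RNA of mouse embryonic stem cells was sequenced. The deposited estimated counts are whole numbers per gene and not normalized; the submitters' processing notes name StringTie 2.2.1, HISAT2 2.2.1, DESeq2 1.42.0 and mm10, and which tool made the table, the annotation and the strand setting are not given in the sources used here. The row names resemble a StringTie export, whose counts can overstate the number of fragments. A floor of 3 counts was 0.169 to 0.418 CPM per library, for counting error only.

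Genes passing filterByExpr (17344) were fitted in edgeR 4.0.16 (R 4.3.3) with TMM factors and the robust quasi-likelihood test, 5 h minus 0 h, without a replicate block. A fold change depends on TMM, and its SE is the log2 fold change over the root of F. Alternatives used DESeq2 1.42.0, limma 3.58.1 (voom), other scalings, filters and counts, a block, and each library left out. Within-library differences used log2(count + 0.5). The fit was tested on simulated data.

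All members were named, with the 3 genes of highest mean CPM in each list of other spliceosome genes; overlapping genes were named for their position. Subunit pairs and printed promoters are extremes chosen after their values were seen. Members and lists were chosen with earlier results of these data known. Spans, positions and promoters come from RefSeq (GRCm38.p6), where all 39 symbols matched. Protein sequences and exon lengths were not used here, so levels of different genes are not compared.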

Additional observations from a re-analysis of the deposited data

How the results depend on the processing

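Scaling was the choice that moved most results, and with 2 libraries a group the spread rests on few degrees of freedom. With library totals 11 members were higher and 10 lower, as were 2298 and 5257 of all genes. The members' median log2 fold change was 0.0067, and the group medians were 0.25 (U2 core), -0.26 (SF3a), 0.23 (SF3b), -0.059 (U2AF and Sf1), 0.49 (U2-associated), -0.17 (U4/U6), 0.011 (U5), 0.29 (tri-snRNP-specific) and 0.048 (Lsm ring). Signs turned for Snrpb2 (-0.013), Sf3a1 (-0.26), Sf3a3 (-0.26), Phf5a (-0.21), U2af2 (-0.059), U2surp (-0.26), Prpf4 (-0.17), Lsm3 (-0.19), Lsm6 (-0.13), Smu1 (-0.18), Prpf38a (-0.081), Cdc5l (-0.036) and Lsm14a (-0.22), none of them called with TMM. With mitochondrial scaling 0 members were higher and 24 lower, as were 396 and 8872 of all genes. The members' median was -0.58, and the group medians were -0.34 (U2 core), -0.84 (SF3a), -0.35 (SF3b), -0.63 (U2AF and Sf1), -0.10 (U2-associated), -0.75 (U4/U6), -0.56 (U5), -0.29 (tri-snRNP-specific) and -0.54 (Lsm ring). Signs turned for Snrpa1 (-0.074), Snrpb2 (-0.60), Sf3a1 (-0.84), Sf3a3 (-0.84), Sf3b1 (-0.40), Sf3b2 (-0.35), Sf3b3 (-0.18), Phf5a (-0.79), U2af2 (-0.63), Sf1 (-0.43), U2surp (-0.84), Htatsf1 (-0.10), Prpf3 (-0.58), Prpf4 (-0.75), Snu13 (-0.038), Prpf8 (-0.56), Snrnp200 (-0.10), Txnl4a (-0.39), Cd2bp2 (-0.51), Lsm2 (-0.36), Lsm3 (-0.78), Lsm5 (-0.54) and Lsm6 (-0.71), and outside the members for Zfp207 (-0.13), Dhx15 (-0.0052), Ddx46 (-0.23), Prpf4b (-0.49), Usp15 (-0.49), Smu1 (-0.76), Prpf38a (-0.66), Aqr (-0.26), Cdc5l (-0.62), Dhx16 (-0.41), Dhx8 (-0.41) and Lsm14a (-0.80). Both scalings lower all genes nearly alike by construction. With the stricter filter (a mean of at least 100 counts) Sf3a1 and Sf3a3 were at -0.037, as was the SF3a median, U2surp was at -0.039 and the U4/U6 median at 0.056. With counts divided by 4 the values were at -0.0065 (Sf3a1 and the SF3a median), -0.0051 (Sf3a3) and -0.0029 (U2surp). These gene values lie within their SE of 0. Leaving out each library in turn gave 2 to 5 members lower, medians of -0.025 to 0.018 (SF3a), 0.13 to 0.29 (U2AF and Sf1) and 0.056 to 0.16 (U4/U6), and values of -0.025 to 0.051 (Sf3a1), -0.0041 to 0.025 (Sf3a3), -0.026 to 0.046 (U2surp), -0.40 to 0.067 (Snrnp27), -0.0028 to 0.15 (Lsm3), -0.014 to 0.29 (Lsm6) and -0.19 to 0.0089 (Mfap1a). Whether same-numbered libraries were paired is not given in the labels. Their deviations correlated at r = 0.0505 across genes, which cannot decide it with 2 libraries a group. With a replicate block the members were again 19 higher and 5 lower, with no member's call changed.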
